A study of Rattus norvegicus with 26 samples.

Results

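The 8 genes described here are the transcription factors Cebpb and Cebpd, which encode C/EBP beta and C/EBP delta, and 6 genes for plasma proteins of the acute phase response: Lbp, the fibrinogen chains Fga, Fgb and Fgg, Hp and Crp. They were chosen by name with earlier results of these data known, 8 of the 4737 genes that have a probe set of their own. Each is represented by every probe set that the platform annotation assigns to that gene alone. This gave 17 of the 8740 probe sets other than controls on the array, and 15 of the 17 passed the filter on low values (5197 of 8740 passed in all). The 2 that did not pass were rc_AA946292_at for Cebpd, with a level between -0.12 and 0.04 log2 on the 26 arrays, and M35602_at for Fgb, between 2.47 and 3.00. One more probe set, X61295cds_s_at, names Crp together with Serinc1 and was left out.

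The acute phase response is the change in hepatic secretion of plasma proteins that follows infection or injury. Interleukin 6 and interleukin 1, released mainly by macrophages, act on hepatocytes through STAT3, NF-kB and the C/EBP factors. C/EBP beta was first described as a nuclear factor for interleukin 6 expression, and C/EBP delta is a related factor of the same family. Both bind the promoters of fibrinogen, haptoglobin and other acute phase genes. TCDD (2,3,7,8-tetrachlorodibenzo-p-dioxin) and PCB 126 (3,3',4,4',5-pentachlorobiphenyl, a coplanar biphenyl) are ligands of the aryl hydrocarbon receptor, the AhR. The receptor pairs with ARNT, binds the xenobiotic response element and induces Cyp1a1, the cytochrome P450 that serves as the standard readout of its activity.

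The arrays came from primary hepatocytes of female Sprague Dawley rats, cultured for 48 hours with TCDD, PCB 126 or the vehicle, 0.5% DMSO. The cells were held as 2 pools, each mixed from 3 rats, so a pool is 1 biological unit and its arrays are not separate animals. TCDD was given at log10 M -14, -12, -10, -8 and -6.5 in both pools and at -11 and -9 in pool 2. PCB 126 was given at -12, -10, -8, -6 and -5 in both pools and at -11 and -9 in pool 2. Each pool had 1 vehicle array, which gives 11 arrays of pool 1 and 15 of pool 2 in 15 groups of chemical and dose. No group held more than 1 array of a pool, so each p-value reflects the array-to-array spread. In an unsorted culture fewer cells of a type and less RNA per cell cannot be told apart.

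All values are deposited log2 expression values, and a level of 1 probe set is not compared with that of another, because probe sets differ in affinity. The hepatocyte label was checked against markers: Alb, the gene of serum albumin, stood between 13.72 and 14.50 on all arrays, and all 8 hepatocyte markers passed the filter. Array medians lay between 3.72 and 3.99 in pool 1 and between 3.48 and 3.78 in pool 2. The arrays of TCDD at -10 in pool 1 and at -11 in pool 2 stood farthest from the dose trends over all probe sets, with root mean square residuals of 0.54 and 0.42 log2 against 0.15 to 0.37 on the other arrays. The array of PCB 126 at -12 in pool 2 was out of dose order for Cyp1a1, at 10.80 against 7.91 at -11. Called member slopes over both pools are given with and without these 3 arrays.

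The promoters of 3 members are shown because, of the 5 members with a promoter in the RefSeq table, these lie before the annotated gene start and hold a match to a searched motif. They are the 250 bases before the annotated start, 5' to 3', from RefSeq on the build GRCr8. Capitals mark the matches.

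Cebpb, chr3:176816755-176817004, plus strand: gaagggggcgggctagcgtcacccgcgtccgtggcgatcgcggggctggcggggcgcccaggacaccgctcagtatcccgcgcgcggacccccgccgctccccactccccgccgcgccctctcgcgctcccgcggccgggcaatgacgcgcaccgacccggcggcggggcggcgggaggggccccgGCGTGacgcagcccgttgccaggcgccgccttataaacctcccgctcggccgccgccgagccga

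Fga, chr2:170671919-170672168, plus strand: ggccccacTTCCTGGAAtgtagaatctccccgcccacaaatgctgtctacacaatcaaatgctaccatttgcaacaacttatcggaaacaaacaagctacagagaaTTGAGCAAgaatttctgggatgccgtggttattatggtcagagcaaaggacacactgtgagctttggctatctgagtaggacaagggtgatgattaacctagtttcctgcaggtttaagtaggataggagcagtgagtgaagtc

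Fgb, chr2:170700876-170701125, minus strand: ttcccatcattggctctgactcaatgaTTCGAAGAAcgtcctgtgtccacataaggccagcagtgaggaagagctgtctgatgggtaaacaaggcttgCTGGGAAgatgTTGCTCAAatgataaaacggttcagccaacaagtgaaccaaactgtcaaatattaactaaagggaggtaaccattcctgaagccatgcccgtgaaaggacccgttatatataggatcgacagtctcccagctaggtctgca

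The motifs were searched on both strands, without allowing mismatches. In the Cebpb promoter the capitals are GCGTG, the core of the xenobiotic response element, at -64 to -60 from the start. GCGTG occurs in 25.9% of the 33469 promoters of the RefSeq table, so a match is common. The Fga promoter held the C/EBP motif TTGCNNAA on the reverse strand at -144 to -137 and the STAT palindrome TTCNNNGAA at -242 to -234. From the second annotated start of Fga the window held 0 matches to TTCNNNGAA, and its C/EBP match lay at -162 to -155. The Fgb promoter held TTGCNNAA at -141 to -134, TTCNNNGAA at -223 to -215 and the interleukin 6 element CTGGGAA at -152 to -146. The Fgg window held CTGGGAA at -169 to -163 and at -61 to -55. It reaches past the annotated gene start at 170652929 on chromosome 2, so the match at -61 to -55 lies inside the annotated gene, and the window is not printed. Over all promoters, TTGCNNAA occurs in 9.22%, TTCNNNGAA in 7.67% and CTGGGAA in 9.56%, and no match overlapped a match of another motif. Motifs of NF-kB (found in 1.08% of promoters) and of HNF1 (0.323%) had no match in the promoters of Cebpb, Fga, Fgb, Fgg or Crp, and Crp held none of the 6 motifs. Promoters of Cebpd, Lbp and Hp were not analysed here. Fgg, Fga and Fgb lie on chromosome 2 between 170652929 and 170700875, a span of 47.9 kb that holds 4 annotated genes, the other being LOC134485930.

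Cebpb rose with dose under both chemicals. On X60769mRNA_at it was, in the mean of both pools, about 3 to 4 times as high at the 2 highest doses of each chemical as in vehicle cells. The excess over vehicle at these doses was larger in pool 1 than in pool 2. With TCDD it was 2.69 and 2.28 log2 in pool 1 against 1.51 and 0.94 in pool 2. With PCB 126 it was 2.3 and 2.22 against 1.17 and 1.19. Lbp, which encodes the protein that presents bacterial lipopolysaccharide to CD14, and Fgg, the gamma chain of fibrinogen, also rose with TCDD. Cebpd, Hp and the other fibrinogen chains passed no test with either chemical. One of 3 Crp probe sets fell with PCB 126. For no member did the difference between TCDD and PCB 126 pass the test.

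In pool 1, Cebpb on X60769mRNA_at stood at 6.63 log2 in the vehicle, and at 6.31, 6.76, 6.59, 9.31 and 8.91 with TCDD at -14, -12, -10, -8 and -6.5. In pool 2 it stood at 7.71 in the vehicle, and at 7.66, 7.66, 8.23, 8.60, 9.02, 9.22 and 8.65 with TCDD at -14, -12, -11, -10, -9, -8 and -6.5. The vehicle level was thus higher in pool 2, and the arrays at -8 and above lay over those at -12 and below in both pools, with no overlap. The level climbed by steps from -11 in pool 2, whereas in pool 1 the array at -10 was at the vehicle level. That array was the one farthest from the trends over all probe sets. The pool 2 array at -11 also stood apart, and there the other Cebpb probe set, S77528cds_s_at, differed from its vehicle by -1.37 log2. With PCB 126, pool 1 gave 6.79, 7.40, 8.43, 8.92 and 8.84 at -12, -10, -8, -6 and -5. Pool 2 gave 8.15, 7.67, 7.98, 8.40, 9.02, 8.88 and 8.90 at -12, -11, -10, -9, -8, -6 and -5. Again the arrays at -8 and above lay over the vehicle and the lowest dose in both pools.

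The slope of X60769mRNA_at was 0.30 ± 0.05 log2 per decade of dose with TCDD (SE, 12 arrays of the chemical; limma adjusted p = 0.00335). With PCB 126 it was 0.24 ± 0.05 (limma adjusted p = 0.0105). At the mean of the 2 highest doses Cebpb exceeded the vehicle by 1.85 ± 0.39 log2 with TCDD, a 3.62-fold difference (limma adjusted p = 0.0226). For PCB 126 this was 1.72 ± 0.39, or 3.29-fold (limma adjusted p = 0.0258). The TCDD slope was called whichever array was left out, between 0.27 and 0.36. The PCB 126 slope was not called without the array of PCB 126 at -12 in pool 1 (0.22, limma adjusted p = 0.0731). Both high-dose calls were lost without either vehicle array (limma adjusted p from 0.0996 to 0.245), so they rest on 1 vehicle array per pool. The excess was 1.63 or 2.07 with TCDD and 1.498 or 1.94 with PCB 126 without the vehicle array of pool 1 or of pool 2. The TCDD call was also lost without the TCDD array at -8 or -6.5 in pool 1 (0.0748 and 0.0987, limma adjusted p), and the PCB 126 call without that at -6 or -5 in pool 1 (0.0928 and 0.0878, limma adjusted p). Without the 3 arrays that stood apart the slopes were 0.31 and 0.27 (limma adjusted p = 0.00233 and 0.00349).

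The second Cebpb probe set, S77528cds_s_at, was dim. It exceeded the filter level of 3.71 on 1 of the 8 arrays of vehicle and of doses at -12 and below, and so passed the filter through the arrays where it was high. Its values are a description, its calls are no support for those of X60769mRNA_at, and no fold over vehicle is given. In pool 1 it stood at 2.21 in the vehicle, at 2.44, 2.35, 2.70, 4.99 and 5.43 over the TCDD doses, and at 2.19, 2.70, 4.52, 4.88 and 4.62 over the PCB 126 doses. The vehicle of pool 2 stood at 2.88, with levels of 3.31, 3.31, 1.51, 4.23, 5.24, 5.97 and 4.11 with TCDD, and at 4.02, 3.12, 3.53, 4.01, 5.41, 5.30 and 4.86 with PCB 126. The value of 1.51, at -11 in pool 2, was the lowest of all 26 arrays, on an array that stood apart over all probe sets. Its slope was called with TCDD, at 0.38 ± 0.09 per decade (limma adjusted p = 0.0258), and not with PCB 126, at 0.32 ± 0.10 (limma adjusted p = 0.0591). The PCB 126 slope was called without the TCDD array at -11 or -6.5 in pool 2 or the PCB 126 array at -12 in pool 2 (limma adjusted p = 0.0148, 0.0388 and 0.0478). The TCDD slope was lost without any of 4 TCDD arrays, those at -12, -8 and -6.5 in pool 1 and at -8 in pool 2 (limma adjusted p from 0.0535 to 0.14). Without the 3 arrays that stood apart the slopes were 0.35 with TCDD and 0.38 with PCB 126, both called (limma adjusted p = 0.00696 and 0.00751).

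**Figure D1:**
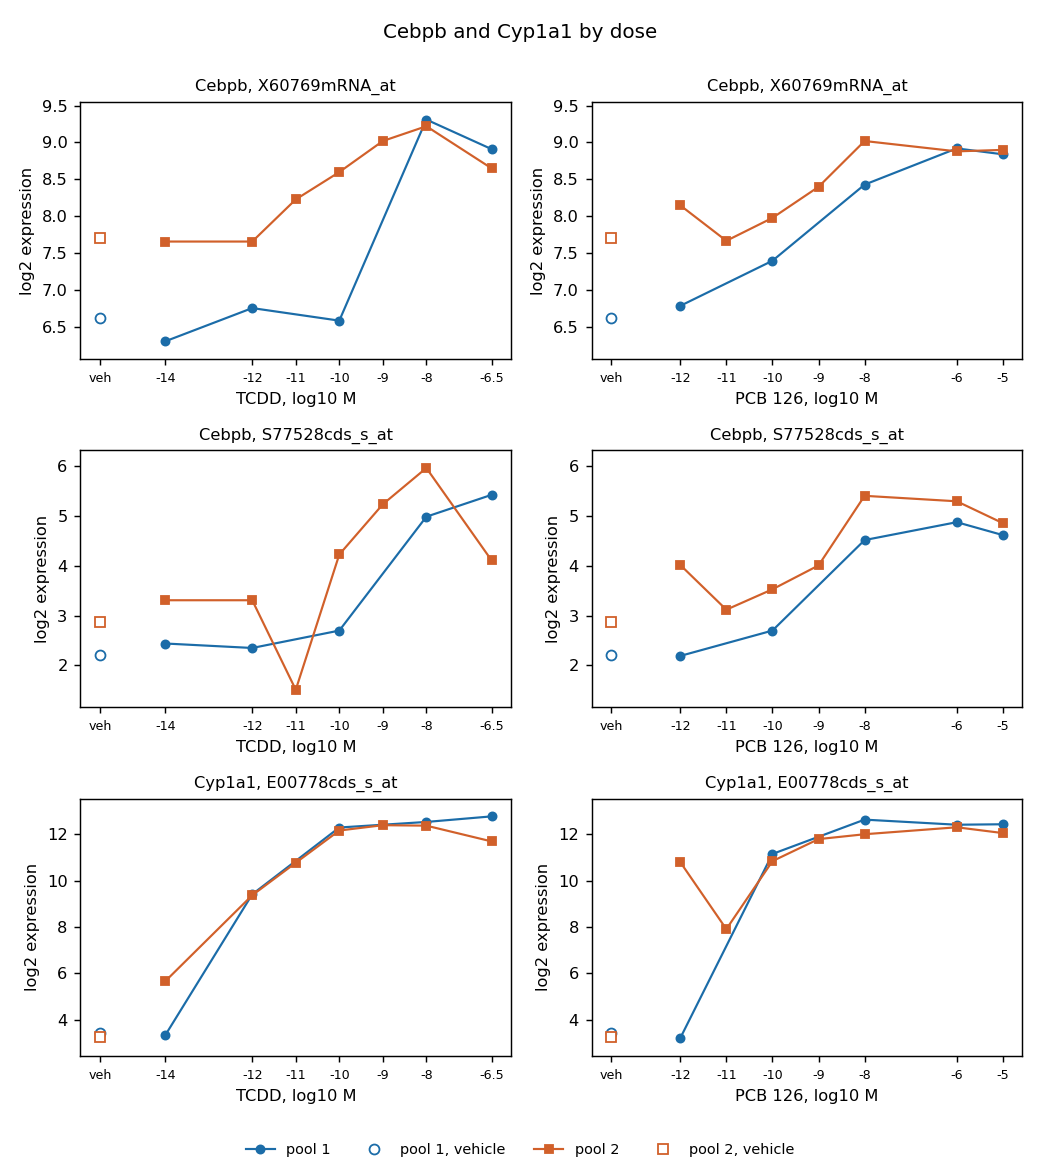
Deposited log2 expression of the 2 Cebpb probe sets and of Cyp1a1 on each of the 26 arrays, against log10 molar dose of TCDD (left) and PCB 126 (right), with the pools as separate lines and the vehicle arrays as open symbols at the left edge, off the dose scale. Cebpb on X60769mRNA_at was at 6.59 in pool 1 at -10 TCDD, on the array farthest from the trends, where Cyp1a1 was at 12.29, and at 9.31 and 9.22 in pools 1 and 2 at -8 TCDD.

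Cyp1a1 marked where the AhR response lay on the dose axis. In pool 1 it stood at 3.45 in the vehicle and at 3.33, 9.41, 12.29, 12.53 and 12.77 over the TCDD doses. Pool 2 gave 3.28 in the vehicle and 5.66, 9.37, 10.77, 12.16, 12.39, 12.37 and 11.69. Cyp1a1 was therefore raised by about 6 log2 at -12 TCDD in both pools, where Cebpb on X60769mRNA_at differed from its vehicle by 0.14 in pool 1 and by -0.05 in pool 2. For PCB 126 it stood at 3.21, 11.15, 12.63, 12.41 and 12.43 in pool 1 and at 10.80, 7.91 and 10.84 at -12, -11 and -10 in pool 2, where it lay between 11.79 and 12.30 at -9 and above.

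Cebpd had no called trend on either kept probe set. M65149_at stood at 7.21 in the vehicle of pool 1 and at 6.75 in that of pool 2. With TCDD it ranged from 6.91 to 7.73 in pool 1 and from 6.88 to 7.09 in pool 2. With PCB 126 the ranges were 7.10 to 7.63 and 6.77 to 7.16. The slopes were 0.03 ± 0.02 with TCDD (95% confidence interval -0.02 to 0.08, limma adjusted p = 0.638) and 0.04 ± 0.02 with PCB 126 (-0.01 to 0.09, limma adjusted p = 0.369). On rc_AI045030_s_at the slopes were 0.14 ± 0.06 and 0.03 ± 0.06 (limma adjusted p = 0.247 and 0.812). That probe set read 5.33 at -14 and 7.19 at -6.5 on the TCDD arrays of pool 1. In pool 2 it lay between 5.99 and 6.33 on all TCDD arrays but that at -11, which read 4.28. The difference of its TCDD slope between the pools was -0.24 ± 0.11, which passed no test after adjustment (limma adjusted p = 0.642).

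Lbp stood at 7.18 in the vehicle of pool 1, and at 6.42, 6.84, 8.65 and 8.46 with TCDD at -14, -12, -8 and -6.5; at -10 it was 0.82 above its vehicle. Pool 2 gave 7.42 in the vehicle, and 7.27, 7.58, 7.61, 8.19, 8.46, 8.48 and 7.77. The arrays at -8 and above lay over the low doses and vehicle in both pools. At -10 in pool 2 Lbp was 0.77 and Cebpb 0.89 above vehicle. With PCB 126, Lbp stood at 7.16, 7.77, 8.84, 8.66 and 7.84 in pool 1 and at 7.63, 7.22, 7.59, 8.05, 8.52, 8.59 and 8.01 in pool 2. In all 4 series of chemical and pool, the top dose was lower than the dose before it.

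The Lbp slope was 0.22 ± 0.05 log2 per decade with TCDD (limma adjusted p = 0.0119). It was 0.14 ± 0.05 with PCB 126, which was not called (limma adjusted p = 0.101). Without the highest dose of each chemical the PCB 126 slope was 0.25 (limma adjusted p = 0.00564). Leaving out the TCDD array at -14 in pool 1, the lowest Lbp value, brought the TCDD slope to 0.18 and it was no longer called (limma adjusted p = 0.098). Without the 3 arrays that stood apart it was 0.22 (limma adjusted p = 0.0156). The excess over vehicle at the 2 highest doses was 1.04 ± 0.27 with TCDD and 0.97 ± 0.27 with PCB 126, and neither was called (limma adjusted p = 0.0655 and 0.0776).

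The 3 fibrinogen chains assemble into one hexameric clotting protein. Fgg on J00735_g_at stood at 11.14 in the vehicle of pool 1 and at 11.43, 11.24, 11.73, 12.31 and 12.38 over the TCDD doses. Pool 2 gave 11.66 in the vehicle and 11.77, 11.94, 12.20, 12.28, 12.28, 12.40 and 12.10. The high and low doses of TCDD did not overlap in either pool. With PCB 126 Fgg stood at 11.50, 11.63, 12.18, 12.41 and 11.88 in pool 1 and at 12.06, 11.63, 11.84, 12.14, 12.24, 12.13 and 11.75 in pool 2. In pool 2 the array at -5 was below that at -12, so high and low doses overlapped there.

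Fgg rose with TCDD, by 0.11 ± 0.03 log2 per decade (limma adjusted p = 0.035) and by 0.90 ± 0.20 at the 2 highest doses over vehicle, or 1.86-fold (limma adjusted p = 0.0248). With PCB 126 the values were 0.05 ± 0.03 and 0.64 ± 0.20 and were not called (limma adjusted p = 0.353 and 0.113). Of the 4 called TCDD slopes it was lost most often when single arrays were left out. It was lost without any of 8 single arrays, all of TCDD (those at -14, -12 and -8 of either pool, at -6.5 in pool 1 and at -9 in pool 2; limma adjusted p from 0.052 to 0.145). Array median centring took it to 0.0749 (limma adjusted p), and without the 3 arrays that stood apart it was 0.11 (limma adjusted p = 0.0292). The high-dose call was lost without either vehicle array (0.73 and 1.07 log2, limma adjusted p = 0.272 and 0.0746), without the TCDD array at -8 of either pool (0.0744 and 0.0601) or without that at -6.5 in pool 1 (0.109, limma adjusted p). The other Fgg probe set, J00735_at, had slopes of 0.12 ± 0.04 with TCDD and 0.01 ± 0.04 with PCB 126 (limma adjusted p = 0.13 and 0.922).

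Fgb, the beta chain, stood on U05675_at at 11.37 in the vehicle of pool 1 and at 11.66, 11.23, 11.79, 12.12 and 11.87 over the TCDD doses. Pool 2 gave 11.27 in the vehicle and 11.08, 11.37, 11.63, 11.62, 11.68, 11.99 and 11.55. With PCB 126 it stood at 11.38, 11.64, 11.98, 12.21 and 11.61 in pool 1 and at 11.56, 11.21, 11.49, 11.60, 11.65, 11.73 and 11.84 in pool 2. High and low doses did not overlap in any of the 4 series, although in pool 1 with PCB 126 the array at -5 was level with that at -10. The slopes were 0.08 ± 0.02 and 0.06 ± 0.02 (limma adjusted p = 0.075 and 0.136). Leaving out the highest doses brought the TCDD slope to 0.12, which was called (limma adjusted p = 0.00922). Leaving out a single array also gave a call, for TCDD without its array at -6.5 in pool 2 and for PCB 126 without its array at -5 in pool 1 (limma adjusted p = 0.0222 and 0.041).

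Fga, the alpha chain, had slopes on M35601_g_at of 0.06 ± 0.02 with each chemical (limma adjusted p = 0.171 with TCDD and 0.189 with PCB 126). Its level stood at 11.40 and 11.18 in the vehicles of pools 1 and 2. Its highest value was 12.22, at -8 TCDD in pool 1, and the excess over vehicle at the 2 highest doses was 0.57 ± 0.16 with TCDD and 0.42 ± 0.16 with PCB 126 (limma adjusted p = 0.102 and 0.252). The second Fga probe set from the same sequence record, M35601_at, had slopes of 0.04 ± 0.02 and 0.06 ± 0.02. The third, rc_AA875097_at, was dimmer, between 3.66 and 6.69, with slopes of 0.08 ± 0.07 and 0.07 ± 0.07.

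**Figure D2:**
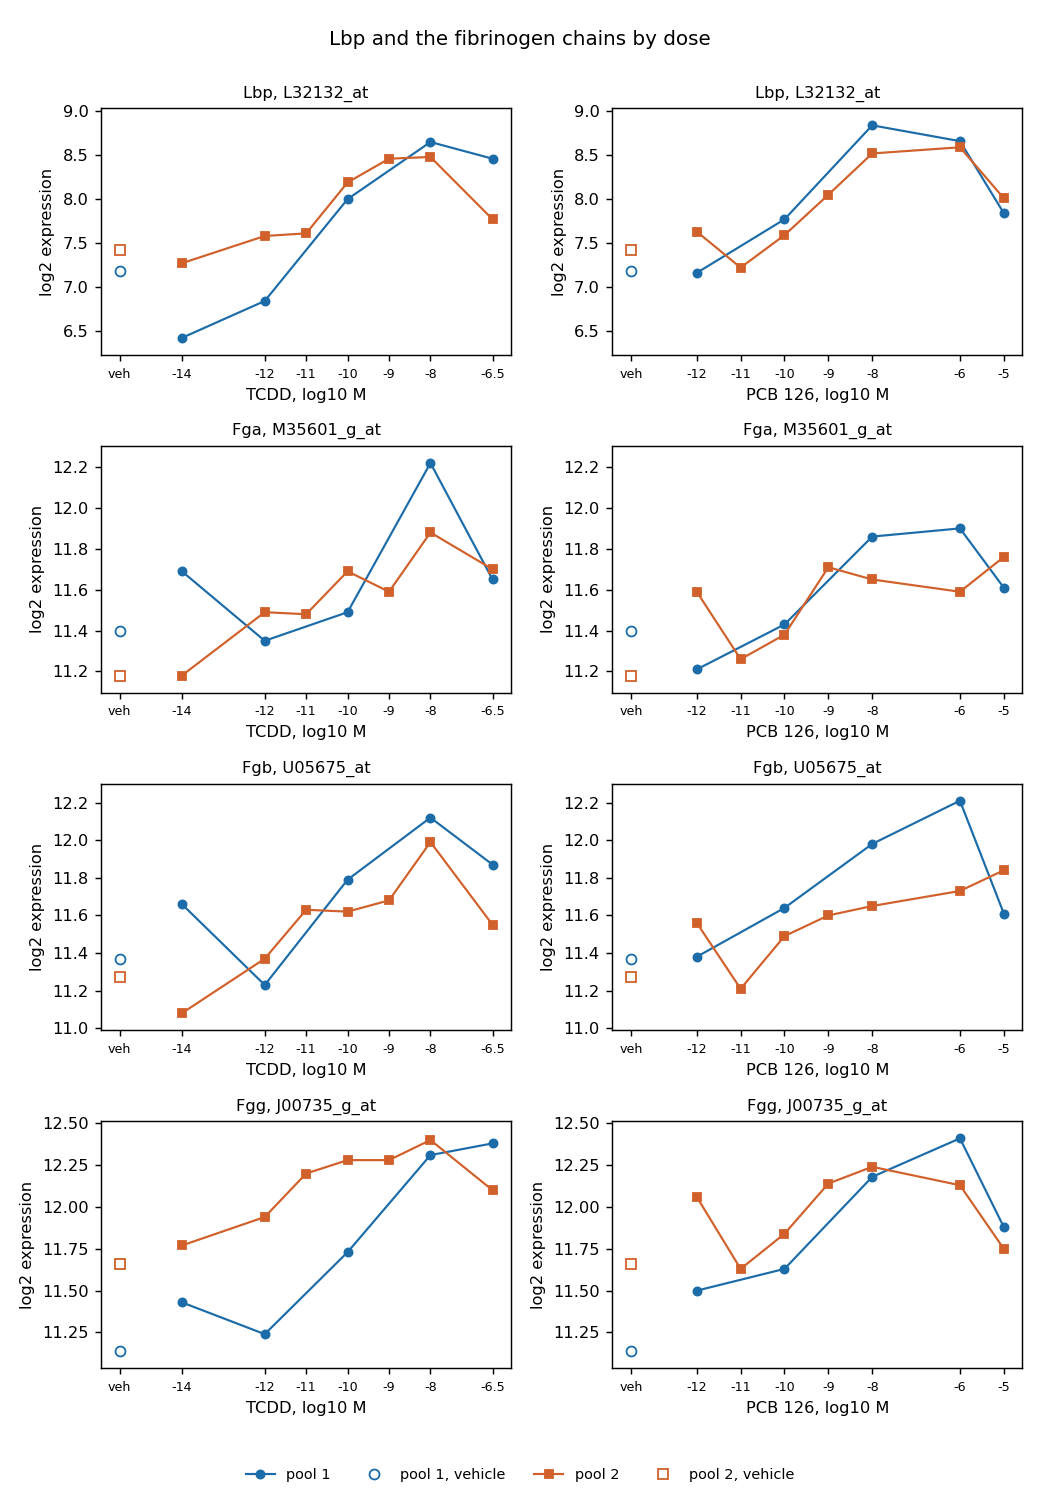
Deposited log2 expression of Lbp, Fga, Fgb and Fgg (the most abundant probe set of each) on every array, against log10 molar dose of TCDD (left) and PCB 126 (right), by pool, with the vehicle arrays as open symbols at the left edge, off the dose scale; the vertical scale differs between genes and is the same for both chemicals. Lbp peaked at 8.84 in pool 1 at -8 PCB 126 and stood at 7.84 at -5.

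Hp, which encodes the hemoglobin-binding protein haptoglobin, had no called trend. K01933_at stood at 13.28 and 13.11 in the vehicles of pools 1 and 2. With TCDD it ranged from 13.10 to 13.34 in pool 1 and from 12.83 to 13.32 in pool 2, the lowest on the array at -11. With PCB 126 it ranged from 13.32 to 13.59 in pool 1 and from 12.96 to 13.29 in pool 2. The slopes were 0.02 ± 0.02 with each chemical (95% confidence intervals -0.02 to 0.05 and -0.01 to 0.06, limma adjusted p = 0.682 and 0.452). The excess over vehicle at the 2 highest doses lay between -0.25 and 0.27 log2 with TCDD and between -0.13 and 0.39 with PCB 126, by their 95% confidence intervals.

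Crp, the pentraxin C-reactive protein, which is a major acute phase protein in humans and is present constitutively in rat plasma, gave different results on its 3 probe sets. M13101cds_f_at stood at 8.57 in the vehicle of pool 1 and at 8.08, 7.93, 8.29, 7.47 and 7.67 over the TCDD doses. In pool 2 it stood at 7.09 in the vehicle and at 7.97, 7.98, 7.03, 8.43, 8.23, 8.72 and 8.59. The high TCDD doses thus lay below the low doses and vehicle in pool 1 and above them in pool 2. The slopes were -0.07 in pool 1 and 0.13 in pool 2, a difference of 0.20 ± 0.10 that was not called (limma adjusted p = 0.719). With PCB 126 the levels ran from 7.39 to 8.19 in pool 1, all below that pool's vehicle, and from 7.96 to 8.99 in pool 2, all above that pool's vehicle.

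U83119_f_at followed M13101cds_f_at. It stood at 8.65 and 7.20 in the vehicles of pools 1 and 2, between 7.07 and 8.02 with TCDD in pool 1, and between 6.67 and 8.42 in pool 2. Its slopes were 0.06 ± 0.05 with TCDD and -0.06 ± 0.06 with PCB 126 (limma adjusted p = 0.685 and 0.556). The names of both probe sets end in _f, which the array maker used for probe sets that can detect related sequences, so their assignment to Crp is less certain.

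The third Crp probe set, rc_AA818144_at, fell with PCB 126. It stood at 7.86 in the vehicle of pool 1 and at 8.66, 8.32, 7.75, 7.72 and 7.39 over the PCB 126 doses, and at 7.79 in the vehicle of pool 2 and 8.37, 8.52, 8.22, 7.94, 7.83, 7.60 and 7.11 over the doses. The level fell with dose in both pools, starting above the vehicle and ending below it. The slope was -0.17 ± 0.04 log2 per decade (limma adjusted p = 0.0153). With TCDD it was -0.13 ± 0.04 and was not called (limma adjusted p = 0.077), except without the TCDD array at -14 in pool 1 or at -6.5 in pool 2 (0.0391 and 0.0163). The call with PCB 126 was lost without the array at -12 in pool 1 or that at -5 in pool 2 (limma adjusted p = 0.101 and 0.0985). Without the 3 arrays that stood apart it was -0.19 (limma adjusted p = 0.0133). Against the vehicle, the 2 highest doses of PCB 126 differed by -0.37 ± 0.31 log2 (limma adjusted p = 0.79).

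**Figure D3:**
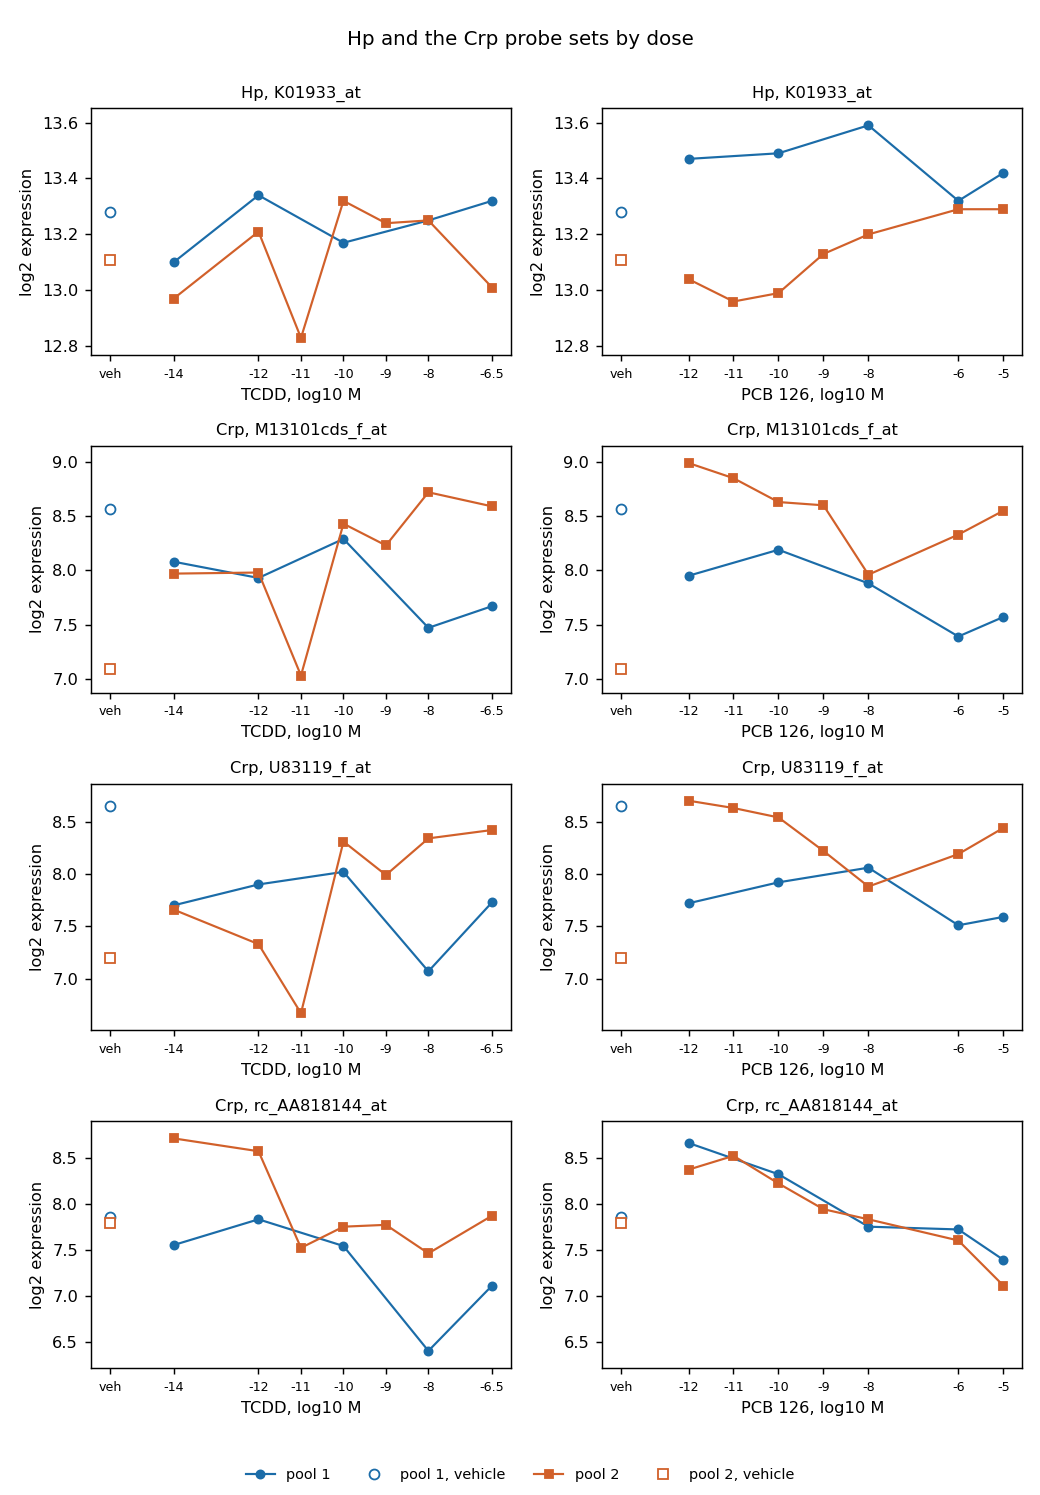
Deposited log2 expression of Hp and of the 3 Crp probe sets on every array, against log10 molar dose of TCDD (left) and PCB 126 (right), by pool, with the vehicle arrays as open symbols at the left edge, off the dose scale; each gene has its own vertical scale. The vehicle level of Crp on M13101cds_f_at was 8.57 in pool 1 and 7.09 in pool 2.

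Of the 15 probe sets, 4 rose and 0 fell with TCDD dose, against 3.1% of all 5197 probe sets called in either direction. The 4 were both Cebpb probe sets, Lbp and Fgg on J00735_g_at, and without S77528cds_s_at 3 of 14 rose. With PCB 126, 1 rose (Cebpb on X60769mRNA_at) and 1 fell (Crp on rc_AA818144_at), against 4.25% of all probe sets. Without the 3 arrays that stood apart, 4 member probe sets were called with TCDD and 3 with PCB 126, S77528cds_s_at being the one gained. Of all 5197 probe sets, 220 and 341 were called there. Taking 1 probe set per gene, the one with the highest mean, the median slope of the 8 genes was 0.07 log2 per decade with TCDD and 0.05 with PCB 126, against -0.01 and 0.01 over all probe sets. At the 2 highest doses over vehicle, 3 of 15 probe sets were called with TCDD (both of Cebpb and J00735_g_at) against 2.25% of all. With PCB 126 both Cebpb probe sets were called, against 3.04% of all. Without S77528cds_s_at these counts were 2 of 14 and 1 of 14. The members were chosen with earlier results of these data known, so the shares of all probe sets beside them are a description. The same holds for the counts of non-overlap below.

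The arrays at -8 and above lay over the vehicle and the arrays at -12 and below, in both pools, for 6 of 15 probe sets with TCDD and for 6 of 15 with PCB 126. Over all probe sets this held for 3.71% and 4.14%, and without S77528cds_s_at the count was 5 of 14 with each chemical. Both Cebpb probe sets, Lbp and Fgb did so with each chemical, although the chemicals share the vehicle arrays. Both Fgg probe sets did so with TCDD only, and M65149_at of Cebpd and M35601_at of Fga with PCB 126 only. This is a count and not a test of a difference between the chemicals. With PCB 126, the highest low value and lowest high value of M65149_at in pool 1 were both 7.21 after rounding. For M35601_at in pool 2 they were 11.17 and 11.19.

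**Figure D4:**
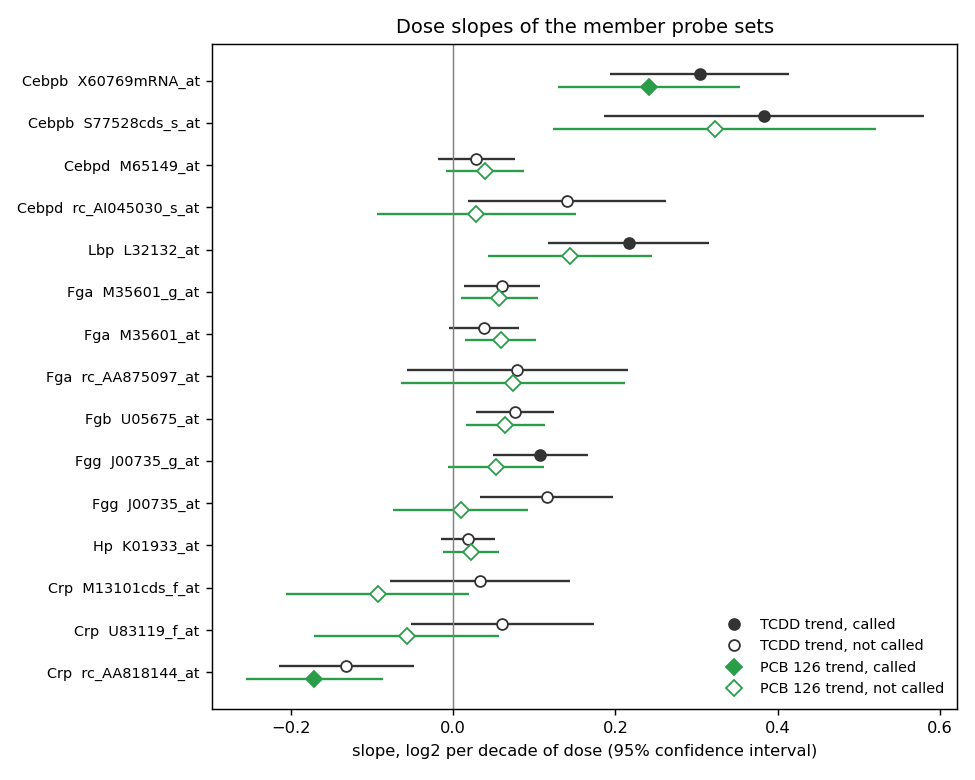
Slope of each of the 15 member probe sets in log2 per decade of dose, with its 95% confidence interval from the limma trend model over 26 arrays, for TCDD (circles) and PCB 126 (diamonds); filled symbols mark an adjusted p below 0.05. The intervals of Cebpb lie above 0 for both chemicals, those of Hp include 0, and rc_AA818144_at of Crp lies below 0.

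TCDD and PCB 126, a chlorinated dibenzodioxin and a chlorinated biphenyl, were compared on the slopes and at the 5 doses they shared. No difference in slope was called in limma for any member (smallest adjusted p 0.577, with 0 of 15 at an unadjusted p below 0.05) or for any of the 5197 probe sets (342 at an unadjusted p below 0.05). For Cebpb the TCDD slope exceeded that of PCB 126 by 0.06 ± 0.08 log2 per decade (95% confidence interval -0.09 to 0.22). For Lbp the difference was 0.07 ± 0.07 (-0.07 to 0.21) and for Fgg 0.06 ± 0.04 (-0.03 to 0.14). These intervals still allow a slope difference as large as most of the members' slopes.

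At -12, -10 and -8, with both pools, Cebpb on X60769mRNA_at differed between TCDD and PCB 126 by -0.26 ± 0.45, -0.10 ± 0.45 and 0.54 ± 0.45 log2. At -11 and -9, with pool 2 alone, it differed by 0.56 ± 0.64 and 0.62 ± 0.64. Each interval included 0, and at -8 it ran from -0.43 to 1.51. S77528cds_s_at was lower with TCDD at -11, by -1.62 (95% confidence interval -3.11 to -0.12, limma adjusted p = 0.314), on the TCDD array that stood apart. Averaged over -12, -10 and -8 only, the matched doses with both pools, Cebpb on X60769mRNA_at differed by 0.06 ± 0.26 (95% confidence interval -0.50 to 0.62). Over the same doses, without -11 and -9, Lbp differed by 0.04 ± 0.18 (-0.35 to 0.43), Fgb by 0.07 ± 0.11 (-0.16 to 0.29) and Fgg by 0.07 ± 0.13 (-0.20 to 0.35). Of 75 such differences (15 probe sets at 5 doses), 0 were called in limma after adjustment over all probe sets within the dose, and 6 had an unadjusted p below 0.05. Of these 6, 5 were at -11, where 1 array of each chemical is compared. At that dose 2.62% of all probe sets were called, and 693 of the 5197 had an unadjusted p below 0.05. There rc_AA875097_at of Fga was higher with TCDD by 1.92 ± 0.49 (limma adjusted p = 0.0527, or 0.213 over the 5 doses together). U83119_f_at and M13101cds_f_at of Crp differed there by -1.96 ± 0.69 and -1.82 ± 0.68 (limma adjusted p = 0.18 and 0.216). The TCDD array at that dose is one of those that stood apart over all probe sets.

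The slopes differed in size between the pools, with no called difference in limma (2 of 15 member probe sets with TCDD and 0 with PCB 126 at an unadjusted p below 0.05). With TCDD the slope of Cebpb was 0.41 in pool 1 and 0.20 in pool 2 (difference -0.21 ± 0.10, limma adjusted p = 0.644). For Lbp it was 0.31 and 0.12 (limma adjusted p = 0.663 for the difference), and for Fgg 0.16 and 0.06 (limma adjusted p = 0.734). With PCB 126 Cebpb had 0.33 in pool 1 and 0.17 in pool 2, and Lbp 0.15 and 0.14. All of these slopes were positive in both pools. In the model with a slope for each pool, the TCDD slopes of Cebpb on X60769mRNA_at, Lbp and Fgg were called in pool 1 (limma adjusted p = 0.00432, 0.0103 and 0.0219), 3 of 15 against 4.06% of all probe sets. In pool 2 they were not (limma adjusted p = 0.331, 0.832 and 0.988), with 0 of 15 called against 0.173% of all. Fitted on the arrays of 1 pool alone, 0 of 15 member probe sets were called with TCDD in limma in either pool. Of the 5197 probe sets, 0 and 12 were called in pools 1 and 2. Without the pool as a block, 2 member probe sets were called with TCDD and 0 with PCB 126, and the counts over vehicle at the high doses fell to 0 for both chemicals.

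**Figure D5:**
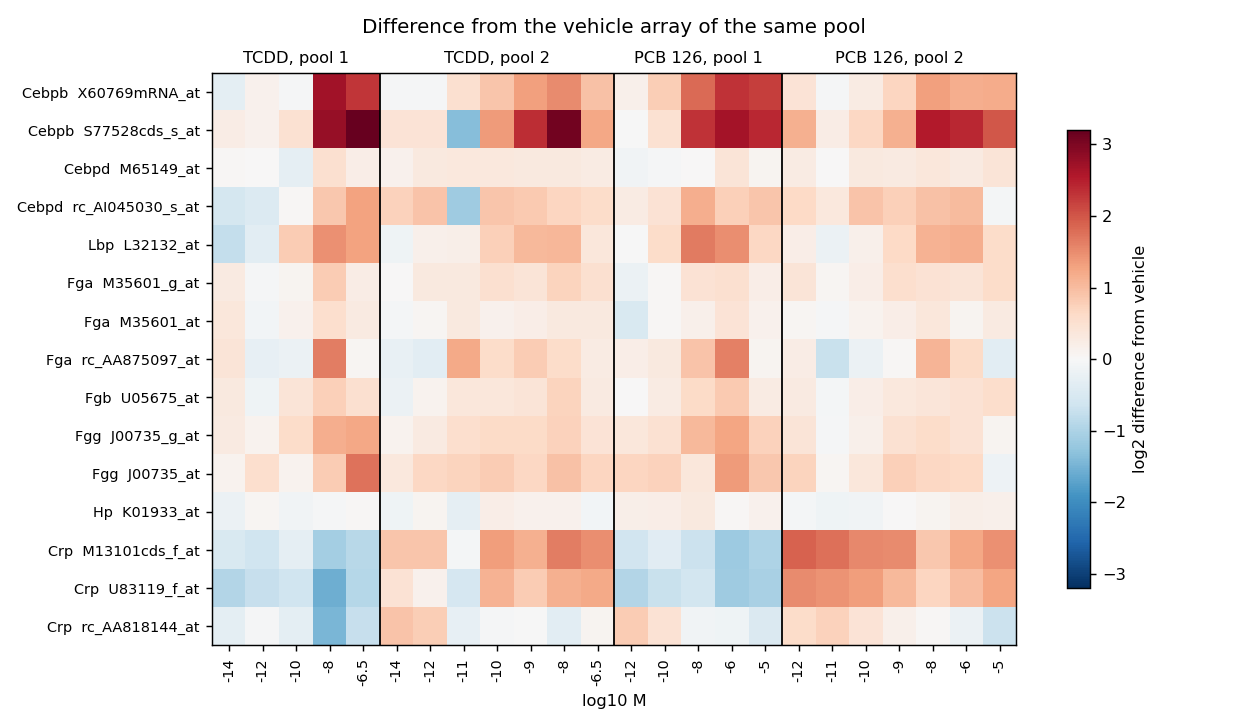
Log2 difference of each member probe set from the vehicle array of the same pool, for the 24 treated arrays ordered by chemical, pool and log10 molar dose; red is higher and blue lower than vehicle. Differences ran from -1.57 to 3.22, with the largest for Cebpb on S77528cds_s_at, and the Crp probe sets M13101cds_f_at and U83119_f_at were below vehicle in pool 1 and mostly above it in pool 2.

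Over the 26 arrays, after the mean of each pool was removed, Cebpb correlated with Lbp at r = 0.85 and with Fgg at 0.85. The correlation was 0.86 for Lbp with Fgg, 0.88 for Fga with Fgb and 0.82 for Fgb with Fgg. Cebpd correlated with Cebpb at 0.74 and with Fga at 0.77. Hp correlated with the other members at 0.50 or less, and Crp between -0.27 and 0.12. The points share doses and pools, and the values are given as a description.

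Among 3026 other genes, those most like Cebpb across the 26 arrays were Serping1 (C1 inhibitor, r = 0.93), Ctsl (cathepsin L, 0.90) and Slc41a2 (a magnesium transporter, 0.90). For Lbp they were Cxcl6 (a neutrophil chemokine, 0.93), Rhob (a small GTPase, 0.92) and Pla2r1 (the phospholipase A2 receptor, 0.91). For Fgb they were Rhob (0.89), Ccl2 (a monocyte chemokine, 0.88) and Cxcl6 (0.88). With TCDD, Cxcl6 had a slope of 0.68 ± 0.13 log2 per decade and Ccl2 of 0.29 ± 0.06 (limma adjusted p = 0.00484 for each). With PCB 126 the slopes were 0.42 ± 0.13 and 0.16 ± 0.06 and were not called (limma adjusted p = 0.067 and 0.116).

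Other genes of the acute phase response moved in both directions. Of 23 measured genes listed as positive acute phase proteins, 2 rose and 2 fell with TCDD, and 2 rose and 3 fell with PCB 126. Of all probe sets 3.1% and 4.25% were called in either direction, and the same shares apply to the lists that follow. Whether each listed gene rises in the acute phase response of the rat was not tested. Serping1 rose with both chemicals (0.12 ± 0.03 and 0.10 ± 0.03), as did Lcn2, the iron-siderophore carrier lipocalin 2 (0.11 ± 0.03 and 0.10 ± 0.03). Apcs, the pentraxin serum amyloid P, fell with both (-0.24 ± 0.06 and -0.26 ± 0.06), and so did the serine protease inhibitor Serpina3c (-0.24 ± 0.06 and -0.32 ± 0.06). A2m, alpha-2-macroglobulin, a strongly induced acute phase protein of the rat, fell with PCB 126 by 0.42 ± 0.10 log2 per decade (limma adjusted p = 0.0167). The median slope of the 23 genes was 0.02 with TCDD and 0.01 with PCB 126. Orm1, the acid glycoprotein, had slopes of 0.04 ± 0.02 and -0.01 ± 0.02 (limma adjusted p = 0.301 and 0.812).

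Of 11 measured negative acute phase proteins, whose genes are repressed in the response, 0 rose and 1 fell with each chemical. That gene was Mug1, a murinoglobulin, with slopes of -0.38 ± 0.10 and -0.44 ± 0.10 (limma adjusted p = 0.0316 and 0.0124). The median slope of the list was -0.04 with each chemical. Of 15 measured transcription factors and cytokine signalling genes of the response, 0 were called with TCDD in limma (4 at an unadjusted p below 0.05). With PCB 126 1 rose, Nfkbia, the inhibitor of NF-kB (0.11 ± 0.03, limma adjusted p = 0.0166). Stat3, the main transducer of interleukin 6, had slopes of 0.01 ± 0.02 and -0.03 ± 0.02 (limma adjusted p = 0.82 and 0.437).

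Of 11 measured coagulation and fibrinolysis genes besides fibrinogen, 1 rose with TCDD and 1 fell with PCB 126. Plat, tissue plasminogen activator, rose with TCDD by 0.15 ± 0.03 log2 per decade (limma adjusted p = 0.00305), and F9, coagulation factor IX, fell with PCB 126 by 0.13 ± 0.03 (limma adjusted p = 0.0168). The median slope was -0.03 with TCDD and -0.01 with PCB 126.

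Markers of other cells that a hepatocyte culture could hold were read beside these results. A summed level is the sum of the log2 values of the measured genes of a list, not their total expression. Il6, the gene of interleukin 6, stood between 3.70 and 4.89 on all 26 arrays, near the median of all values, with slopes of -0.02 ± 0.02 and 0.02 ± 0.02. None of the 5 measured cytokine genes was called with either chemical in limma (0 with TCDD and 1 with PCB 126 at an unadjusted p below 0.05). Their summed level was 21.9 in the vehicle of pool 1 and 18.7 in that of pool 2, and at -8 and above it ranged from 21.1 to 21.8 and from 18.6 to 18.9 with TCDD, and from 20.8 to 21.8 and from 17.9 to 20.4 with PCB 126. Of 5 measured macrophage and Kupffer cell markers, Lyz2, the macrophage lysozyme, fell with both chemicals (-0.19 ± 0.04 and -0.17 ± 0.04) and 0 rose. C1qb, Csf1r and Itgam were at or under 3.70 and did not pass the filter. The summed level of the 5 was 26.3 and 24.8 in the vehicles, and at -8 and above it ranged from 24.7 to 25.4 and from 23.8 to 24.4 with TCDD in pools 1 and 2. With PCB 126 it ranged from 25.2 to 25.4 and from 24.0 to 25.5. Of 7 stellate cell and fibroblast markers 0 rose, and Tagln, an actin-binding protein of smooth muscle, fell with PCB 126 (-0.48 ± 0.09). Tagln ran from 6.15 to 11.28 over the arrays, the widest range of the 7, so their sum can move with this 1 gene. The summed level of the 7 was 40.25 and 38.7 in the vehicles, and at -8 and above it ranged from 38.3 to 39.4 and from 35.9 to 37.7 with TCDD, and from 35.0 to 38.0 and from 35.5 to 38.1 with PCB 126. The single measured endothelial marker was not called. It stood at 4.48 and 3.97 in the vehicles, from 4.21 to 4.28 and from 3.66 to 3.76 at the high TCDD doses, and from 4.22 to 4.48 and from 3.65 to 4.46 at those of PCB 126. The trends of the 2 measured cholangiocyte markers were not called. Their summed level was 9.34 and 12.8 in the vehicles, from 8.44 to 8.66 and from 11.1 to 11.4 at the high TCDD doses, and from 8.33 to 9.35 and from 10.4 to 11.5 at those of PCB 126. It was thus lower than vehicle on all high-dose TCDD arrays, as were the levels of the hepatocyte, macrophage, stellate cell and endothelial markers. At the 2 highest doses, 2 of 2 cholangiocyte markers had an unadjusted limma p below 0.05 over vehicle with TCDD (1 of 2 with PCB 126). Of all 5197 probe sets, 566 did so with TCDD and 689 with PCB 126. Of 8 hepatocyte markers, Cps1 and Asgr2 fell with TCDD (-0.21 ± 0.05 and -0.14 ± 0.03) and Tat rose with PCB 126 (0.20 ± 0.04). The summed level of the 8 was 75.6 and 76.9 in the vehicles, from 73.0 to 73.4 and from 75.2 to 76.5 at the high TCDD doses, and from 73.5 to 76.2 and from 75.7 to 76.0 at those of PCB 126. The part of these markers in the members' results was not tested.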

How the data were processed

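Expression was measured on 26 Affymetrix rat arrays of primary rat hepatocytes. The values are the authors' deposited log2 expression values, made with GCRMA 2.8.0, with RMA also named, per the submitters' processing notes. Settings: not given in the sources used here. GCRMA draws dim signals together, so differences between dim probe sets are compressed. The number of arrays limits the precision.

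Groups came from the labels, and 0 columns were left over. Of 8740 probe sets, controls excluded, 5197 were kept whose second-highest value exceeded 3.71 log2, the median of all values. Symbols came from the platform annotation (7006 probe sets with 1 gene, 308 with several, 1426 with none). Promoters were matched by symbol to RefSeq for 5 of the 8 members.

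The tests were linear models in limma 3.58.1 (R 4.3.3), moderated by eBayes with a robust mean-variance trend, with Benjamini-Hochberg adjustment over 5197 probe sets within each comparison and calls below 0.05. One model held pool, chemical and, per chemical, a slope on log10 dose (20 residual degrees of freedom), with vehicle as a level of its own. A second held pool and 15 groups (10 degrees of freedom), where single arrays are assumed to vary like the others, and another held slopes by pool (18 degrees of freedom). All models were run on simulated data with noise drawn independently for each array. Only the simulation for the first model held a difference in level between pools. None held arrays that stand apart, so the runs do not test how the models handle such arrays. Pool is the block because the labels place its arrays in cells of the same animals. In the 11 groups with both pools, same-pool deviations correlated at 0.461 to 0.892 (mean 0.732). No arrays were identical (highest r = 0.997). Contrasts with vehicle share the vehicle arrays.

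Named genes are the members, the 3 genes most like Cebpb, Lbp and Fgb, up to 4 called genes per list, and Cyp1a1 as the position of the AhR response. A2m, Orm1, Stat3 and the markers with their ranges fall outside this rule and were named after their values were seen. The members, lists and markers were chosen with earlier results of these data known. Alternatives were another scaling, filter, moderation, dose coding, reference, block and array set. Those without 3 arrays that stood apart, and without S77528cds_s_at, were chosen after seeing the data.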

Additional observations from a re-analysis of the deposited data

How the results depend on the processing

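Counts are of the 15 member probe sets called. The TCDD trend (4 called) gave 2 without a filter, 1 on the TCDD arrays alone, 9 with vehicle coded as a dose 1 decade under the lowest, and 0 on either pool alone. Leaving out 1 array at a time gave 2 to 6. The PCB 126 trend (2) gave 5 with array weights, 7 with vehicle below the lowest dose, 0 on doses with both pools, 0 on pool 1 alone, 1 on pool 2 alone, and 0 to 3 without 1 array. TCDD high doses over vehicle (3) gave 1 with median centring, 6 with array weights, 5 with vehicle and lowest dose as reference, and 0 to 5 without 1 array. PCB 126 high doses (2) gave 1 with median centring and 0 to 3 without 1 array. The matched doses (0) gave 1 with the stricter filter, 1 with array weights, and 0 to 1 without 1 array. Without the replicate block the TCDD trend gave 2, the PCB 126 trend 0, and both high-dose comparisons 0. The difference of the trends and the difference between pools gave 0 under every alternative run. The Crp slope on M13101cds_f_at with TCDD turned to -0.0676 on pool 1 alone and to -0.0156 with vehicle below the lowest dose. The Hp slope with PCB 126 turned to -0.015 on pool 1 alone. The cause was not tested.

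Over all 5197 probe sets, the 161 calls of the TCDD trend became 103 with median centring (67% up, against 52.8%), 39 without the block, 0 and 12 on pools 1 and 2, 408 with vehicle below the lowest dose, 46 on its own arrays, and 81 to 257 without 1 array. The 221 of the PCB 126 trend became 599 with array weights, 56 without the block, 0 and 110 on pools 1 and 2, 504 with vehicle below, 104 on doses with both pools, 106 without the highest doses, 367 on its own arrays, 341 without the 3 arrays, and 53 to 371 without 1 array; centring left 23.5% up, against 36.7%. The high-dose counts of 117 (TCDD) and 158 (PCB 126) became 27 and 39 without the block; for TCDD, centring gave 66 (86.4% up, against 59.8%) and the wider reference 199. Without 1 array they ran from 52 to 165 and from 80 to 180. The matched-dose calls, 138 over 5 doses, became 210 with array weights, 2 without the block, 9 without the 3 arrays, and 2 to 1045 without 1 array. The 0 pool differences became 2 with plain moderation, 1 with array weights, and 0 to 4 without 1 array.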
